A study of Mus musculus with 3 samples.

Results

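The Kruppel-like factor (KLF) family was examined through 9 genes, Klf2, Klf3, Klf4, Klf6, Klf7, Klf9, Klf10, Klf12 and Klf13, taken by name with every probe set that the platform annotation pairs with 1 of these symbols. This gave 35 of 34945 single-symbol probe sets, and 9 of the 18193 genes on the array. Gene expression was measured on 3 Affymetrix arrays of bone marrow cells that were Sca-1-positive and lineage marker-negative, a fraction that holds haematopoietic stem and progenitor cells. Mice were 10 weeks old and of strain C57BL/6J. The Line 6 and Line 3 arrays held cells of mice with the transgene Tg(Ly6a-KDM1A*v2, which is named for Ly6a (the Sca-1 gene) and KDM1A (the histone demethylase LSD1). The third array held cells of wild type mice without it. Each line is 1 transgenic line, and neither the number nor the sex of the mice behind an array is given in the sources used here.

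KLF proteins are transcription factors with zinc fingers at the C terminus that bind GC-rich and CACCC sequences in promoters, and they differ in their N-terminal parts. Klf2, Klf4, Klf6 and Klf7 act largely as activators, Klf3 and Klf12 recruit the corepressor CtBP, and Klf9, Klf10 and Klf13 recruit the corepressor Sin3. In blood cells, Klf2 keeps lymphocytes quiescent and restrains inflammatory activation of myeloid cells, and Klf4 takes part in monocyte differentiation.

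The deposited intensity has a linear scale with no unit. Differences below are on the log2(intensity + 16) scale, with wild type subtracted from each line and Line 6 subtracted from Line 3, and a gene was called at a difference of 2-fold or more, a log2 difference of 1. Each genotype had 1 array, so the differences carry no replicate error and no p-value. A gene is represented by its brightest probe set, and 10866 genes with an intensity at or above the array median on at least 1 array were kept. In bulk samples, fewer cells of a type and less RNA per cell cannot be told apart.

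The wild type array stood apart from the others. The number of genes at least 2-fold from both other arrays in the same direction was 59 for Line 6, 135 for Line 3 and 373 for wild type. Xist read 6152 in Line 6 and 5155 in Line 3 cells, against 2729 in wild type cells, and the Y-linked Eif2s3y read 978 and 1031, against 2325 in wild type. Sex therefore cannot be told apart from genotype. Kdm1a read 2575 and 2979 in the lines and 2104 in wild type, within 2-fold. Stem and progenitor markers were above the array median in 9 of 9 annotated genes in both lines and in all but 2 of them in wild type, while Ly6a is not paired with a probe set. The neutrophil genes S100a8 and Mmp9 were bright on all 3 arrays, although the sample is labelled as lineage marker-negative.

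Klf2 was the 1 KLF gene that lay at least 2-fold from wild type, and it was lower in both lines. Klf6, Klf13, Klf4 and Klf7 also read lower in both lines on every one of their probe sets, by less than 2-fold on the brightest. Klf3 was lower on every probe set in Line 3, and on its kept probe sets it was close to wild type in Line 6 on the deposited scale, though not after centring on array medians. Klf9 was the member with the most upward difference between the lines, above wild type in Line 3 and below it in Line 6. Klf10 hardly differed among the arrays, and Klf12 was too dim to be kept.

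Of the 8 KLF genes kept, 1 was called lower in both lines, where the background was 2.08% of all genes kept. The background of lower calls was 2.43% in Line 6 and 4.47% in Line 3, and no KLF gene was called higher, where 2.6% and 3.6% of genes were. With no filter, 6 of the 9 KLF genes lay below wild type in both lines, against 32.8% of all 18193 genes. Of the 35 probe sets, 21 lay below wild type in both lines, against 32.5% of all single-symbol probe sets, 5 lay above it in both and 9 had opposite signs. Probe sets of 1 gene read the same transcripts and are not independent. At a limit of 1.5-fold, Klf2, Klf6 and Klf13 were lower in Line 6 (background 6.96%), Klf2, Klf7 and Klf13 in Line 3 (10.3%), and Klf2 and Klf13 in both (5.43%). The median difference of the 9 genes was -0.23 in Line 6 and -0.43 in Line 3, where all genes kept had medians of 0.06 and 0.12. The wild type array entered both comparisons, and any chance deviation on it is shared by them.

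**Figure D1:**
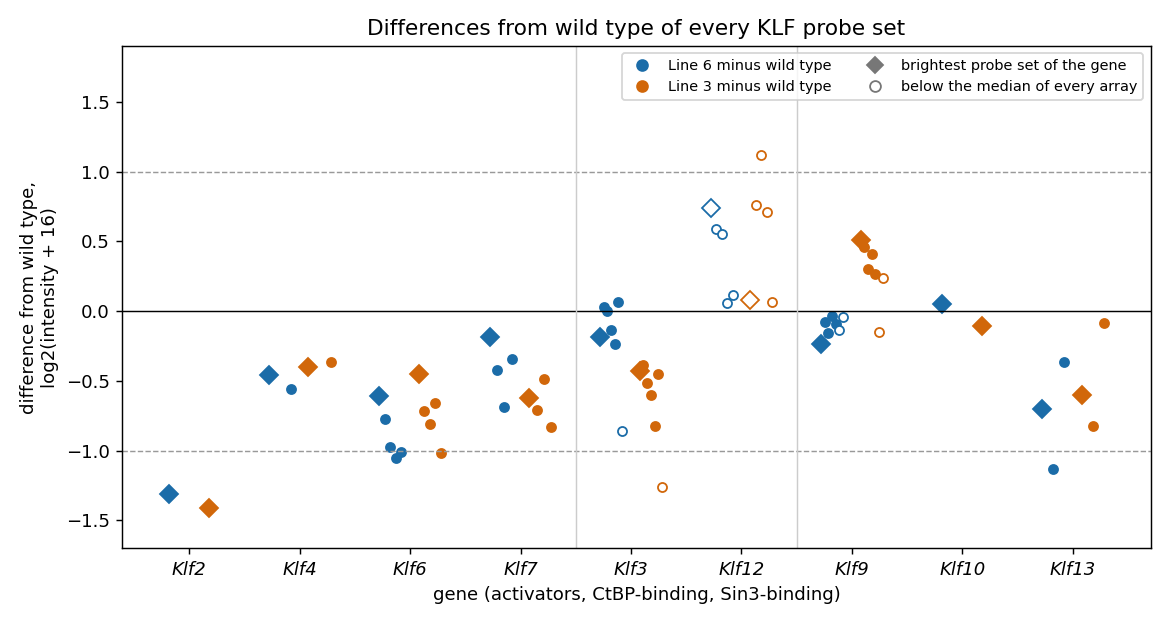
Differences from wild type of all 35 KLF probe sets, in log2(intensity + 16), with Line 6 to the left of Line 3 for each gene; diamonds mark the brightest probe set, open symbols lie below the median of every array and dashed lines mark 2-fold. Klf2 lies past 2-fold lower in both lines (-1.31 and -1.41), and the kept Klf9 probe sets lie below 0 in Line 6 and above 0 in Line 3.

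Among the activators, all 12 probe sets of Klf2, Klf4, Klf6 and Klf7 lay below wild type in both lines, with a median of -0.65 in Line 6 and one of -0.69 in Line 3. The promoters of Klf2, Klf4 and Klf6 are printed as examples of genes that read lower together in both lines, as Klf7 also did. They come from RefSeq (GRCm38.p6) and run from 250 bases before to 50 bases after the start of the gene, 5′ to 3′ on the gene's strand. Capitals mark the GC box GGGCGG, the CACCC box and the MEF2 consensus on either strand, the first pair being sequences that KLF proteins are known to bind. Klf2 lies on the plus strand at chr8:72318812-72319111, Klf4 on the minus strand at chr4:55532426-55532725 and Klf6 on the plus strand at chr13:5861239-5861538.
Klf2: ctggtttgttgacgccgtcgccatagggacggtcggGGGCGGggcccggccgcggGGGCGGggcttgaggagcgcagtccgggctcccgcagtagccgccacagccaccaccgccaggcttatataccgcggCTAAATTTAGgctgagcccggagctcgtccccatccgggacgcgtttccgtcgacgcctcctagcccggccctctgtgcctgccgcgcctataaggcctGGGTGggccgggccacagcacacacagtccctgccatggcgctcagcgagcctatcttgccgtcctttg
Klf4: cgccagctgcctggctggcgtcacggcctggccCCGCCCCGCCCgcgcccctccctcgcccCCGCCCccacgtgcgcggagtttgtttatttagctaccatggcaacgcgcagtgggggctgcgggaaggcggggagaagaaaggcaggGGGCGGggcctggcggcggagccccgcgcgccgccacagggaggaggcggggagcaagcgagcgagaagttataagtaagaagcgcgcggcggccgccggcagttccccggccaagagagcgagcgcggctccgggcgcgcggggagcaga
Klf6: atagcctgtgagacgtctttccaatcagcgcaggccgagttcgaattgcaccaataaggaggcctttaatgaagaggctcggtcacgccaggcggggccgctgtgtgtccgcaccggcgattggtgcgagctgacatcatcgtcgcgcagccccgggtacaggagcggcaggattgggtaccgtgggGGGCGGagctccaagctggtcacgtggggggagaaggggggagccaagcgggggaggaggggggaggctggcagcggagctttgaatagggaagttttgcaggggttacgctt
The Klf2 window held 2 GC boxes, 1 CACCC box and 1 MEF2 match, the Klf4 window held 4 GC boxes and the Klf6 window held 1. A GC box was present in 35.7% of all 32851 promoter windows of this length, a CACCC box in 57.5% and a MEF2 match in 3.19%. Of the 8 KLF genes with a window, 6 had a GC box, 6 had a CACCC box and 1, Klf2, had a MEF2 match. Klf10 has no entry in the table. A match is a string of letters and no evidence of binding.

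Klf2 had a single probe set, which read 742 in Line 6 and 690 in Line 3 cells, against 1862 in wild type cells. The readings of the lines lay close together and well below wild type. The fold was 2.48 between Line 6 and wild type (-1.31) and 2.66 between Line 3 and wild type (-1.41), while Line 3 lay -0.10 from Line 6. Of all genes kept, 1.32% had a lower difference in Line 6 and 2.24% in Line 3. Among the 4319 genes within 2-fold of its mean intensity, Line 3 minus Line 6 had an SD of 0.32, the only yardstick for array-to-array spread at this brightness, with biology and noise mixed in it.

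Klf6, a widely expressed factor that is active in myeloid cells, had 5 probe sets, and wild type was the highest array on each. The brightest read 4217 in Line 6 and 4708 in Line 3, against 6450 in wild type (-0.61 and -0.45). The next read 3977 and 4126 in the lines, against 6805 in wild type (-0.77 and -0.72). The probe sets thus agreed in direction while the size varied with the probe set. The other 3 were dimmer and differed from wild type by -0.98 to -1.05 in Line 6, more than the brighter pair, and by -0.66 to -1.02 in Line 3. In Line 6, 2 of the 5 passed 2-fold, and in Line 3, 1 did, against a background of 2.12% and 4.25% of probe sets kept. The dimmest, at 171 and 170 in the lines and 361 in wild type, passed in both, as 1.7% of probe sets kept did.

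Klf4, a factor of monocyte differentiation and of reprogramming to pluripotency, was lower by a similar amount on both of its probe sets. The brighter read 2451 in Line 6 and 2547 in Line 3, against 3368 in wild type (-0.46 and -0.40). The other read 1979 and 2273 in the lines, against 2928 in wild type (-0.56 and -0.36). No Klf4 probe set reached 1.5-fold in either line.

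Klf7, a factor best known from neuronal development, was lower on 4 of 4 probe sets. The brightest read 1246 in Line 6 and 916 in Line 3, against 1420 in wild type (-0.19 and -0.62). The others differed between -0.34 and -0.69 in Line 6 and between -0.49 and -0.83 in Line 3. Line 3 lay below Line 6 on 3 of the 4 and above it on the other (0.20), so the order of the lines was not the same across probe sets.

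**Figure D2:**
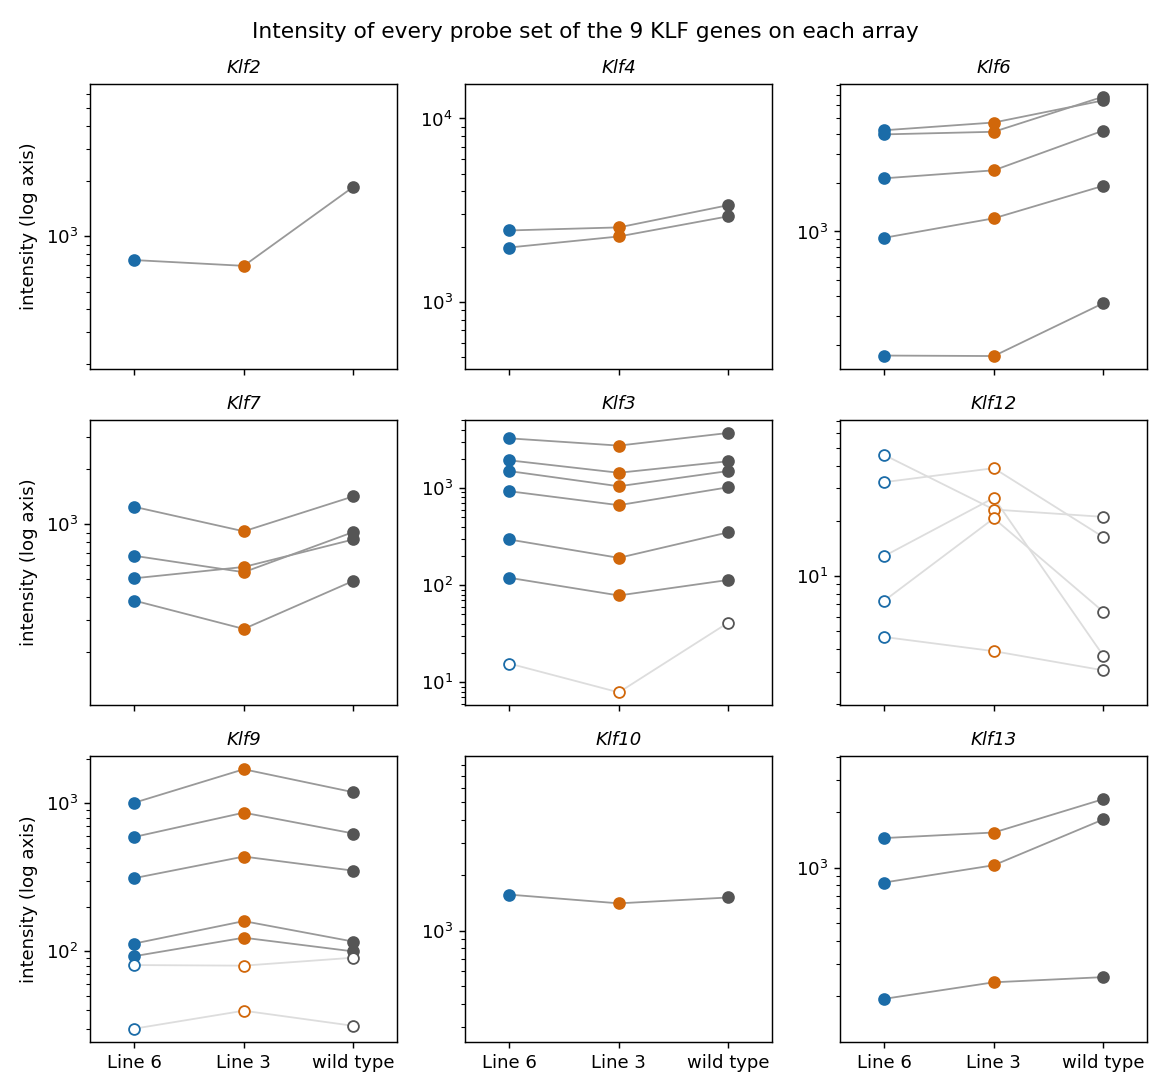
Intensity (log axis) of every probe set of the 9 KLF genes on the Line 6, Line 3 and wild type arrays, with 1 array each; points of a probe set are joined and open symbols lie below the median of every array. Wild type is the highest array on each probe set of Klf2, Klf4, Klf6, Klf7 and Klf13, and Line 3 is the highest on all kept probe sets of Klf9.

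Klf3, a CtBP-recruiting repressor that acts in B cell and erythroid cells, differed in Line 3 and hardly in Line 6 on the deposited scale. After centring on array medians its brightest probe set stood at -0.42 in Line 6 and at -0.47 in Line 3, with Line 3 at -0.05 from Line 6. Its brightest probe set read 3244 in Line 6 and 2731 in Line 3, against 3688 in wild type (-0.18 and -0.43). The next read 1927 in Line 6 and 1435 in Line 3, against 1885 in wild type (0.03 and -0.39). Over the 6 kept probe sets the difference ran from -0.23 to 0.06 in Line 6 and from -0.82 to -0.39 in Line 3. Line 3 was also lower than Line 6 on all 7 probe sets, by -0.25 to -0.59. The remaining probe set was dim, at 15.6 and 7.87 in the lines and 41.2 in wild type. Its differences of -0.86 and -1.26 are understated by the pseudocount and cannot be told from background.
Its promoter, on the plus strand at chr5:64803271-64803570, is shown because it was the richest of the 8 in both motifs, with 6 GC boxes and 5 CACCC boxes that share 1 base.
Klf3: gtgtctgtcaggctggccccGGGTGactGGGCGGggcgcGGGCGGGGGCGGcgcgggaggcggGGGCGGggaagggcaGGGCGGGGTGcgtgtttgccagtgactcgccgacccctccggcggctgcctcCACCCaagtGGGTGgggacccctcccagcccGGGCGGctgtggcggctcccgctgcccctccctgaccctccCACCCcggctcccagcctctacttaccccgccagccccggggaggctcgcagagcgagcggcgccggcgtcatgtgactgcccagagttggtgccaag

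Klf12, the other CtBP-recruiting member and a repressor of the AP-2 alpha gene, was below the median of every array on all 5 probe sets. Its readings ran from 3.06 to 45.7. The brightest read 45.7 in Line 6 and 23.0 in Line 3, against 21.0 in wild type. All 5 lay above wild type in both lines, with differences from 0.06 to 0.74 in Line 6 and from 0.06 to 1.12 in Line 3, at readings that could not be told from background.

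Klf13 and Klf9, both Sin3-recruiting, lay below wild type in Line 6 and on opposite sides of it in Line 3. Their promoters are set side by side. Klf13 lies on the minus strand at chr7:63938866-63939165 and Klf9 on the plus strand at chr19:23140976-23141275, with the same capitals as above.
Klf13: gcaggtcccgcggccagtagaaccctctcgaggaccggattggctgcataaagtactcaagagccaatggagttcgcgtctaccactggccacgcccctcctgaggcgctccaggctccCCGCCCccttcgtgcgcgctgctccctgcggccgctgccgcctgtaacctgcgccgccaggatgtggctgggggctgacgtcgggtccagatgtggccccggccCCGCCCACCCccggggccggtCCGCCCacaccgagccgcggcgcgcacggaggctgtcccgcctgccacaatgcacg
Klf9: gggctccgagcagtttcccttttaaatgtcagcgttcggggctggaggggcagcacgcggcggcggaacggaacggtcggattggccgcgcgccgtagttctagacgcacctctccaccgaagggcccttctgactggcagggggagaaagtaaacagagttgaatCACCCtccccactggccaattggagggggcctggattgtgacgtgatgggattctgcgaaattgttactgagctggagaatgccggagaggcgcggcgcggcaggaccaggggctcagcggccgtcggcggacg
The Klf13 window held 3 GC boxes and 1 CACCC box, with 1 base in both motifs, and the Klf9 window held no GC box and 1 CACCC box.

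Klf13, an activator of the chemokine gene Ccl5 in T cells, was lower in both lines on 3 of 3 probe sets. The brightest read 1450 in Line 6 and 1554 in Line 3, against 2365 in wild type (-0.70 and -0.60). The second read 830 and 1031 in the lines, against 1833 in wild type, past 2-fold in Line 6 (-1.13) and not in Line 3 (-0.82). The dimmest read 192 and 237 in the lines and 253 in wild type (-0.37 and -0.09). The 3 probe sets shared the direction and not the size.

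Klf9, a gene induced by glucocorticoids and thyroid hormone, was highest in Line 3. Its brightest probe set read 1006 in Line 6 and 1695 in Line 3, against 1186 in wild type (-0.23 and 0.51). The next read 591 in Line 6 and 863 in Line 3, against 624 in wild type (-0.08 and 0.46). All 5 kept probe sets had this order, with differences of -0.23 to -0.04 in Line 6 and 0.27 to 0.51 in Line 3. Such opposite signs were seen at 11.8% of all genes kept. Of the 2 dimmer probe sets, 1 shared it, and the other read 80.6 and 79.9 in the lines and 90.4 in wild type.

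Klf10, the TGF-beta-inducible early gene, read 1573 in Line 6 and 1409 in Line 3, against 1517 in wild type, on its only probe set. The differences were 0.05 in Line 6, which turned to -0.18 after centring on array medians, and -0.10 in Line 3, within the SD of 0.30 between the lines at that brightness.

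**Figure D3:**
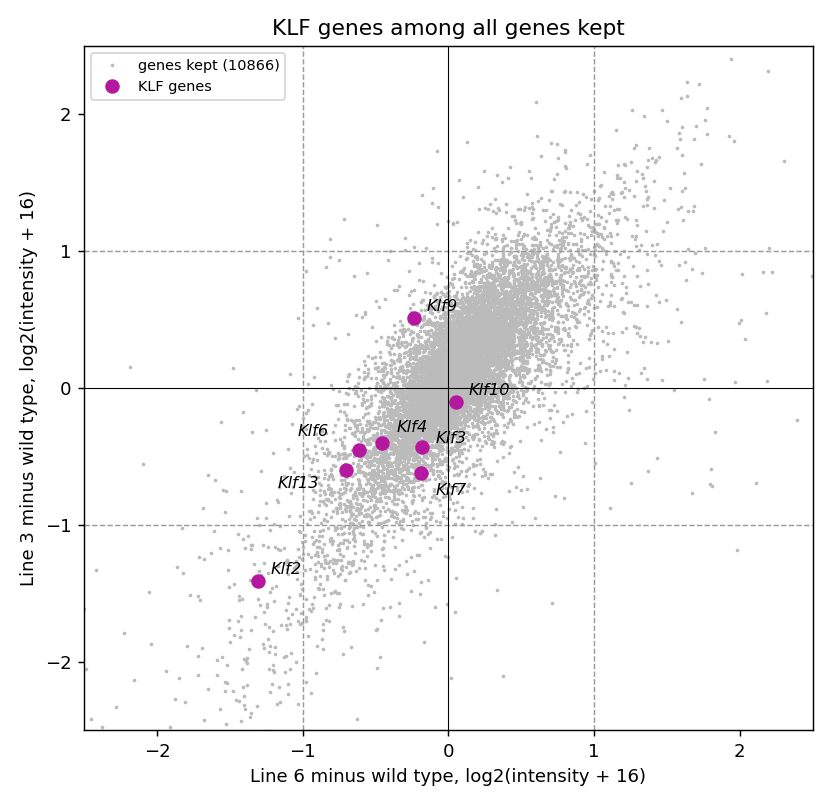
Line 6 minus wild type (x axis) against Line 3 minus wild type (y axis), in log2(intensity + 16), for the 10866 genes kept (grey) and the 8 KLF genes among them; dashed lines mark 2-fold and 66 genes lie outside the axes. Klf2 lies in the lower left corner past both limits, Klf9 above 0 on the y axis only, and the axes share the wild type array.

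Between the lines, no KLF gene differed by 2-fold, where 0.727% of genes kept were higher and 1.58% lower in Line 3. Klf9 came nearest, at 1695 in Line 3 and 1006 in Line 6 (0.74), past 1.5-fold like 4.38% of genes kept. Its 5 kept probe sets gave 0.36 to 0.74, against an SD of 0.31 over genes of its brightness. Klf7 (-0.44) and Klf3 (-0.25) were the lowest of the kept members on their brightest probe sets. Klf2 (-0.10, and 0.10 after centring), Klf4 (0.05), Klf6 (0.16), Klf13 (0.10) and Klf10 (-0.16) lay inside the SD of genes of their brightness. After centring, Klf6 lay at 0.36, outside its SD of 0.25, and Klf13 at 0.30, beside its SD of 0.30.

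The genes nearest to Klf2 in the pair of differences from wild type, over 3 arrays, were Piwil2 (-1.29 in Line 6 and -1.45 in Line 3), Ccl2 (-1.29 and -1.37), Gal (-1.36 and -1.40), Gk5 (-1.30 and -1.33) and Trem3 (-1.24 and -1.35). Their distances from Klf2 were 0.04 to 0.09. Ccl2 encodes a monocyte chemokine and Trem3 a myeloid receptor. Trem3 read 1629 in Line 6 and 1508 in Line 3, against 3869 in wild type, while Piwil2, Ccl2, Gal and Gk5 read at most 216 on any array. Those dim genes reached the array median in wild type only. They were thus kept through the array where they are high, which favours negative differences.

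The remaining KLF genes and the SP factors, which share the zinc finger type, showed no common direction. Klf5 was the lowest of the 4 kept KLF genes outside the 9, at 802 in Line 6 and 672 in Line 3, against 1282 in wild type (-0.67 and -0.92). Its 2 other probe sets gave -0.11 and 0.20 in Line 6 and -0.67 and -0.30 in Line 3, so the Line 6 sign varied. Klf1, the erythroid member, read 2986 and 3240 in the lines and 2475 in wild type (0.27 and 0.39). Klf11 (0.29 and 0.59) and Klf16 (0.48 and 0.10) were likewise above wild type. Klf14, Klf15 and Klf17 were below the median of every array, and Klf8 is not paired with a probe set. Of the SP factors, Sp1 (0.02 and -0.15), Sp3 (-0.27 and -0.62) and Sp4 (0.02 and -0.39) were kept, and Sp5, Sp6, Sp7 and Sp8 were not. No gene of either list was called among those kept, beside the shares of all genes given above.

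Genes that act above or beside the KLF proteins were mostly within 2-fold, as most genes kept were. Of 11 genes of the ERK5-MEF2 route, which induces Klf2 and Klf4 in endothelial cells, none was called in both lines. Of all genes kept, 2.08% were lower and 1.35% higher in both. Mapk7, the ERK5 gene itself, read 282 in Line 6 and 300.3 in Line 3, against 589 in wild type (-1.02 and -0.94). Mef2c, a MEF2 factor gene, was on the other side, at 2239 and 1940 in the lines and 1325 in wild type (0.75 and 0.54). The FOXO factor gene Foxo1, an activator of Klf2 in lymphocytes, read 845 and 711 in the lines and 375 in wild type (1.14 and 0.89), in the direction opposite to Klf2. It was the 1 call among 3 FOXO factors, in Line 6, and Foxo4 stood at 0.39 and 0.28. Of 15 cofactors and ubiquitin ligases of KLF proteins, none was called in either line. Smurf1 (-0.70 and -0.56) and Kat2a (0.35 and 0.78) differed most. Of all genes kept, 2.43% were called lower and 2.6% higher in Line 6, and 4.47% and 3.6% in Line 3.

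Genes tied to KLF activity did not share a direction. Of 7 genes kept from a list tied to Klf2 in lymphocytes and endothelium, 0 were called in both lines, where 2.08% of genes were lower and 1.35% higher. The medians were 0.12 and 0.04, with Ccr7, a lymph node homing receptor, at 0.68 and 0.95 and Ripor2 at -0.65 and -1.06. Of 10 erythroid target genes of Klf1, none was called in both lines. In Line 3, 2 were lower, Alas2 (-1.57), the first enzyme of haem synthesis in red cells, and the globin gene Hbb-b2 (-1.16), against -0.34 and -0.69 in Line 6. Among 8 glucocorticoid-induced genes, none was called in both lines, while in Line 3 Ddit4 was higher (1.13) and Cebpd lower (-1.21). Line 3 minus Line 6 had a median of 0.32 over them, where all genes kept had a median of 0.05. It was above 0 in 5 of 8, and below 0 in Sgk1, Zbtb16 and Cebpd. A tie of these genes to the Klf9 readings was not tested. The 8 TGF-beta early response genes had medians of -0.25 and -0.19 with none called in either line, beside the shares of all genes given above. Tgif1 (0.40 and 0.93) and Pmepa1 (0.53 and 0.27) differed most on average.

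**Figure D4:**
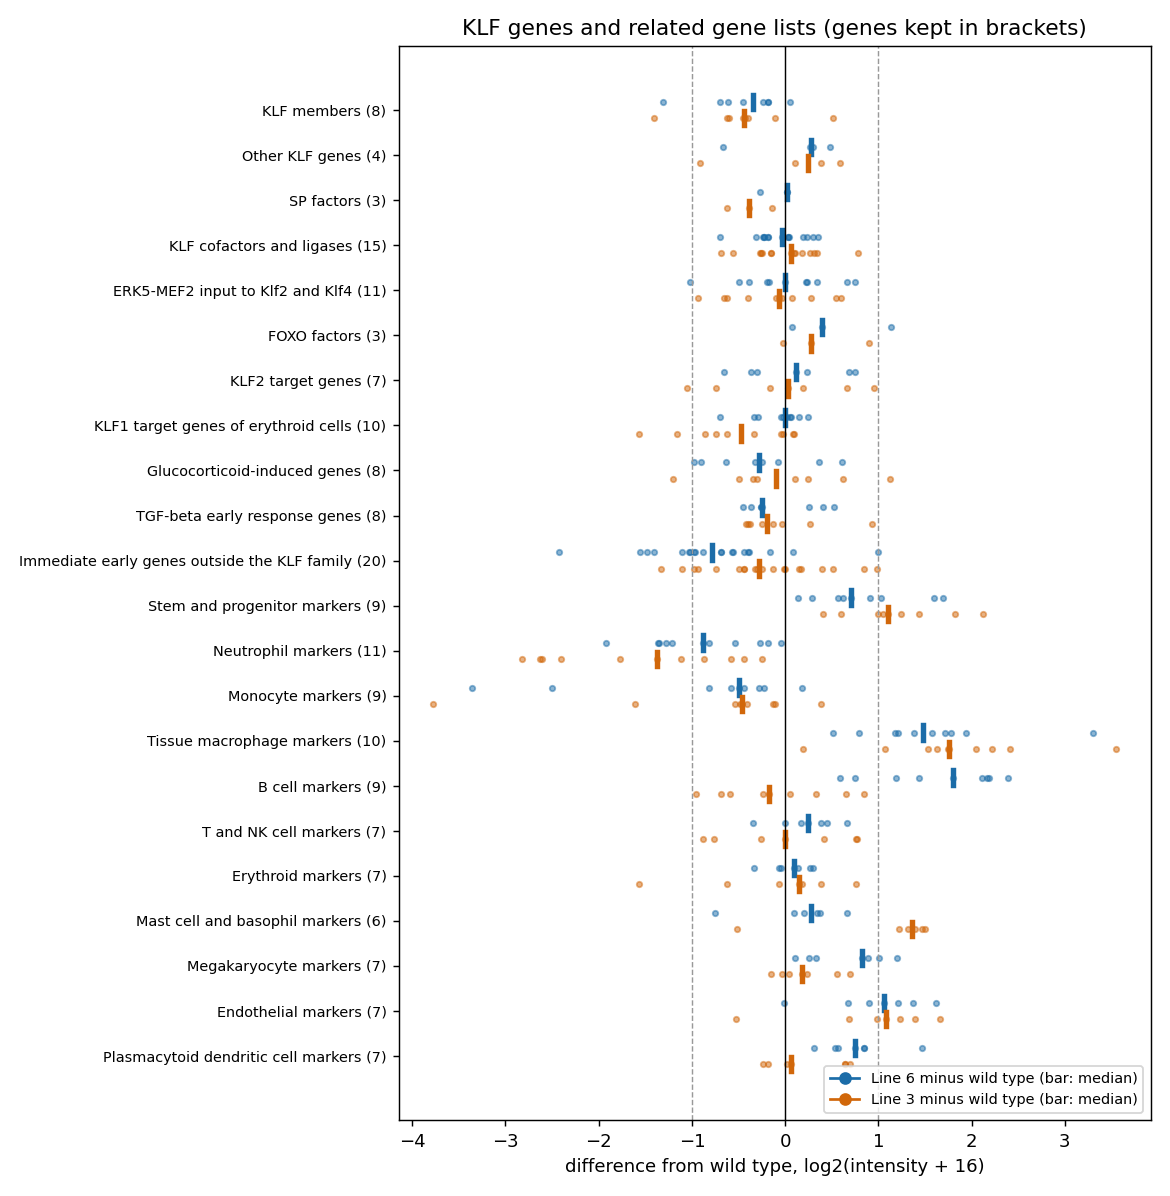
Differences from wild type, in log2(intensity + 16), of the kept genes of the KLF list and 21 related lists, with Line 6 above Line 3; small points are genes, bars are medians and dashed lines mark 2-fold. Neutrophil markers have medians of -0.88 and -1.38 and stem and progenitor markers 0.70 and 1.11, and the KLF list lies at -0.34 and -0.44 over its 8 kept genes.

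Immediate early genes outside the family, a class that Klf2, Klf4, Klf6 and Klf10 join in many cells, were also low in Line 6. Of 20 genes, 18 lay below wild type in Line 6 and 13 in Line 3. Their medians were -0.78 and -0.28, where all genes kept had medians of 0.06 and 0.12. In Line 6, 7 were called lower, and in Line 3, 2 were, where 2.43% and 4.47% of genes kept were. Atf3 (-2.42 and -1.33) and Egr3 (-1.41 and -1.10) were called in both lines, as 2.08% of genes kept were. The summed intensity of the 20 genes was 45678 in Line 6 and 65021 in Line 3, against 71314 in wild type. This list was 0.55 higher in Line 3 than in Line 6 by median, with 17 of 20 genes above 0. Klf2 lay -0.10 from Line 6 in Line 3. A tie of the immediate early genes to the KLF readings was not tested.

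Neutrophil and monocyte markers lay mostly below wild type in both lines. Over all genes kept, 2.08% were called lower and 1.35% higher in both lines. All 11 kept neutrophil markers lay below wild type in both lines, and 5 were called in both, namely Itgb2l (-1.92 and -2.82), Mmp8 (-1.28 and -2.63), Mmp9 (-1.21 and -2.61), the chemokine receptor gene Cxcr2 (-1.36 and -2.40) and the G-CSF receptor gene Csf3r (-1.35 and -1.77). Their summed intensity was 98494 in Line 6 and 76568 in Line 3, against 141389 in wild type. Of 9 monocyte markers, 8 lay below wild type in each line. The sums over that list were 33072 and 33646 in the lines and 41695 in wild type. Cd14 (-2.50 and -1.61) and Vcan (-3.35 and -3.77) were called in both lines. Vcan lay below the array median in both lines and was kept only through wild type, where it was high.

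Tissue macrophage, stem cell and endothelial markers were on the other side. All 10 tissue macrophage markers lay above wild type in both lines and 8 were called, with sums of 10164 and 12413 in the lines and 3918 in wild type. The scavenger protein gene Cd5l (3.30 and 3.55) led them, with the receptor genes Mrc1 (1.94 and 2.41), Cd163 (1.57 and 1.76), Axl (1.38 and 1.75) and Mertk (1.18 and 1.54). The complement genes C1qa (1.21 and 1.63), C1qb (1.78 and 2.05) and C1qc (1.72 and 2.22) completed the 8. All 9 stem and progenitor markers lay above it, with sums of 11230 and 14136 in the lines and 7586 in wild type. Meis1 (1.03 and 1.11), Procr (1.60 and 2.12) and Mecom (1.69 and 1.82) were called in both lines. Of 7 endothelial markers kept, 6 lay above wild type in each line. Emcn (1.37 and 1.67), Stab2 (1.61 and 1.23) and Esam (1.21 and 1.40) were called in both. Emcn read 94.0 in Line 6, 118.7 in Line 3 and 26.4 in wild type, and Esam read 89.6, 104.4 and 29.7. Both were dim and passed the filter only through Line 3, where they were highest. Procr, Mecom, Cd5l, Mertk and Stab2 lay below the array median in wild type and were kept through the lines, where they were high. The sums over 10 annotated markers were 2878 and 2984 in the lines and 1531 in wild type.

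Several marker lists also differed between the lines. Neutrophil markers were lower in Line 3 than in Line 6 in 11 of 11 genes, 3 of them past 2-fold. B cell markers were past 2-fold lower in Line 3 than in Line 6 in 7 of 9 genes. Of all genes kept, 1.58% were past 2-fold lower in Line 3 than in Line 6. B cell markers were above wild type in 9 of 9 genes in Line 6 and 4 of 9 in Line 3, with sums of 10771 and 3865 in the lines and 3518 in wild type. Vpreb3 (2.19 and 0.05) and Blk (2.16 and 0.85) had the largest mean differences of that list. Mast cell and basophil markers lay higher in Line 3 than in Line 6 in 6 of 6 kept genes. Of these, 3 were past 2-fold, as 0.727% of all genes kept were. The dim Tpsb2 (-1.55) and Cma1 (-1.26) of that list, not kept, lay lower in Line 3 than in Line 6. The sums over 8 annotated markers were 22389 in Line 3, 12121 in Line 6 and 13040 in wild type. Ms4a2, at intensities of 1752 and 3857 in the lines and 1351 in wild type, and Gzmb, at 154 and 234 against 91.2, led on average. Of the 6 kept genes, 5 lay above wild type in each line. Hdc lay below it, at 3677 in Line 6 and 4343 in Line 3, against 6211 in wild type. Megakaryocyte markers had a median of 0.82 in Line 6 and one of 0.18 in Line 3, with Pf4 at 1.20 and 0.55, Gp5 at 1.01 and 0.18, and sums of 3460 and 2749 in the lines and 2012 in wild type. None was 2-fold apart between the lines. Plasmacytoid dendritic cell markers had medians of 0.74 and 0.06, with Spib at 1.47 and 0.06, Bst2 at 0.74 and 0.65, and sums of 9327 and 6900 in the lines and 5351 in wild type. T and NK cell markers (medians 0.25 and -0.0039) had sums of 4014 and 4741 in the lines and 3858 in wild type, with Cd4 at 0.66 and 0.76 and Ncr1 at 0.38 and 0.77. Erythroid markers (medians 0.10 and 0.14) had sums of 38142 and 34121 in the lines and 36862 in wild type, with Car1 at 0.30 and 0.76 beside Alas2. No annotated marker of these lists was at 0 on any array. The part of these cell types, and of sex, in the KLF readings was not tested.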

How the data were processed

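Per the labels' protocols, Trizol RNA was amplified (Ovation Pico WTA), labelled with biotin from 3 ug and put on Affymetrix GeneChip arrays, 3 in all. The deposited file holds linear intensity values per probe set, made by a summary and scaling not given in the sources used here. A trimmed mean (2% off each end) came to 497 for every array, which shows a prior scaling. No detection calls were used, and 22.5% to 24.4% of probe sets lay below 16 on each array.

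Probe sets were named through the platform annotation, in which 34945 had 1 symbol, 932 several and 9160 were not listed. Symbols were updated through 34741 Entrez identifiers (GRCm38.p6). Differences of log2(intensity + 16) were called at 2-fold, and the procedure was run on simulated data. Those data had the same noise for every gene and planted differences that were all larger than those of Klf2. That run therefore says nothing about differences of the size seen here. With 1 array per genotype, precision is limited by the number of arrays. The members and lists were chosen with earlier results of these data known, and the lists were written from general knowledge. The text names all 9 genes and all annotated KLF and SP genes. Of each other list it names the genes called in both lines or, if fewer than 2, the pair with the largest mean difference. S100a8, Kdm1a, Xist and Eif2s3y are named as checks. Further list members are named where they go against the rest of their list. The 5 genes nearest to Klf2 were those with the smallest Euclidean distance in the pair of differences.

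Alternatives were quantile normalization, centring on array medians, cyclic loess, pseudocounts of 1 and 64, the filter removed or raised to percentile 75, a gene's median over its probe sets, probe sets with the plain _at suffix, call limits of 1.5-fold and 3-fold, and limma with the lines pooled as 1 group of 2 samples. Python 3.11.15, numpy 2.4.6, pandas 2.3.3, R 4.3.3 and limma 3.58.1 were used.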

Additional observations from a re-analysis of the deposited data

Results flagged for a closer look

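Klf9 had opposite signs in the lines on its brightest probe set, below wild type in Line 6 and above it in Line 3, and Line 3 lay 0.74 above Line 6. Klf10 also had opposite signs, above wild type in Line 6 and below it in Line 3, and Line 3 lay -0.16 from Line 6. Neither difference was tested, because each line had 1 array, and the Klf10 sign in Line 6 turned under another scaling.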

How the results depend on the processing

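Klf2 was called lower in both lines under every alternative scaling and pseudocount tried. Its differences ran from -1.54 to -1.26 in Line 6 and from -1.48 to -1.35 in Line 3. The filters and probe set rules could not change these values, because Klf2 has a single, bright probe set. With the 1.5-fold limit, 2 KLF genes were lower in both lines (Klf2 and Klf13), 3 were called in Line 6 (with Klf6), 3 in Line 3 (with Klf7) and 1 between the lines (Klf9). The background of lower genes at that limit was 5.43% in both lines, 6.96% in Line 6 and 10.3% in Line 3. With the 3-fold limit, 0 were called in Line 6, 0 in Line 3 and 0 in both. With the median of all probe sets, 2 were called in Line 6, because Klf13 reached -1.13. With limma and the lines pooled as 1 group of 2 samples, 0 of 8 KLF genes had an adjusted p under 0.05, 2 (Klf2 and Klf13) had an unadjusted p under 0.05, and the lowest adjusted p was 0.0996, for Klf2. That fit called 6 of 10866 genes. The spread in that fit came only from Line 3 against Line 6. Its p-values therefore hold no error of the wild type array and none within a line. Changing the filter cannot move a gene's value, and changing the call limit cannot move its sign. Part of the agreement counted next was therefore fixed in advance. Of 297 values of single genes recomputed under 11 alternatives, 282 kept their sign and side of the limit. Another 11 kept their sign and changed side, and 4 had the other sign. Those were Klf10 in Line 6 (down to -0.18 after centring) and, between the lines, Klf2 (up to 0.10), Klf10 (up to 0.04) and Klf12 (up to 0.44). Centring moved Line 6 by 0.24 against wild type, so the KLF median in Line 6 was -0.47 there. With the median of all probe sets it was -0.51 in Line 6 and -0.60 in Line 3. The KLF median between the lines was -0.10, and 0.10 after centring and 0.13 with the median of all probe sets. With pseudocount 1 the dim Klf12 passed 2-fold in Line 6 (1.09). No paired analysis was possible because each genotype had 1 array, and no replicate could be left out.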

Other observations

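Other motifs searched on both strands of the 8 KLF promoter windows are given as counts. The cyclic AMP response core TGACG was present in 6 of 8 (Klf2, Klf3, Klf4, Klf9, Klf12 and Klf13), against 20.8% of all 32851 windows. The CCAAT box was present in 3 of 8, against 37.4%, with 4 matches in Klf6, 3 in Klf9 and 2 in Klf13. The E-box CACGTG was present in 2 of 8 (Klf4 and Klf6), against 7.15%, and the TATA box TATAAA in 1 of 8 (Klf12), against 13.6%. GC content of the windows ran from 45.7% in Klf12 to 76.7% in Klf3, and these shares were not adjusted for it.

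Klf17 and Sp8, dim on all 3 arrays, were past 2-fold lower in both lines on their brightest probe sets. Klf17 read 6.18 in Line 6 and 4.54 in Line 3, against 29.3 in wild type, and its 2 other probe sets had differences of 0.58 and -0.22 in Line 6. Sp8 read 6.37 and 10.2 in the lines and 37.7 in wild type. These readings could not be told from background.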
